A study of Mus musculus with 9 samples.

Results

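Nras, Rras, Rras2 and Mras encode small GTPases of the Ras and R-Ras subfamilies, and Nras is also the gene that was added to one of the cell lines studied. They were taken as all probe sets whose platform annotation gives exactly 1 gene symbol, that symbol being one of the 4 genes. This gave 4 of the 12393 genes named in this way on the array, with 7 of its 22690 probe sets: 3 for Nras, 2 for Rras2, and 1 each for Rras and Mras. A probe set is a group of short oligonucleotides on the array that together give 1 signal for their target transcripts. Each is shown separately under its platform identifier.

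Ras proteins are switches that bind GTP in the active state and GDP in the inactive one. Exchange factors load them with GTP, GTPase-activating proteins speed its hydrolysis, and effectors such as the Raf kinases and phosphoinositide 3-kinase bind the GTP form. A lipid anchor at the carboxyl end holds them at membranes. In fibroblasts, serum growth factors activate Ras through receptor tyrosine kinases and adaptor proteins.

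Total RNA was profiled on Affymetrix mouse arrays in 3 lines with 3 arrays each, 9 in all. SV5 NN4 is a stable NIH 3T3 clone that expresses SV40 large T antigen, a viral oncoprotein that binds the retinoblastoma proteins and p53, together with wild-type Nras. SV5 is a stable NIH 3T3 clone transformed by SV40 large T antigen, and NIH 3T3, the wild-type line from which both come, is an established mouse embryo fibroblast line. All lines grew in medium with calf serum. Each engineered line is 1 clone, so effects of T antigen or of added Nras and traits of the clone cannot be told apart. The labels used here state neither the promoter of the added Nras, nor the species of its sequence, nor whether replicates were separate cultures. P-values therefore cover array-to-array spread only, part of which may be technical.

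The deposited intensities were used as log2(intensity + 1), the scale of all levels and differences below. The 7 probe sets read 5.22 to 9.96 over the 9 arrays, above the 3.14 to 4.25 of 15 bacterial control probe sets (Dap, Lys and Trpn), whose targets mouse RNA lacks. Arrays of the same replicate number deviated together, and this number held 61.1% of the total variance on the array, against 21.8% for line. Equal numbers were paired, as set with the choice of genes, and differences were tested with limma with that number as a block. A probe set was called at a Benjamini-Hochberg adjusted p under 0.05 over all 22690 probe sets. All 9 of the fibroblast markers examined reached the median probe set level of 5.93 in each line. Of 28 measured markers of epithelial, endothelial, blood, muscle, fat and neural cells, none was called in limma in any of the comparisons, and 0 had an unadjusted p under 0.05. In SV5 NN4 against SV5, SV5 against NIH 3T3 and SV5 NN4 against NIH 3T3, 1.05%, 0.0484% and 1.96% of all genes were called. None called among 28 therefore lies near the background. At an unadjusted p under 0.05 in limma, 14.6%, 15.0% and 19.4% of all genes passed. The 6 epithelial and 5 endothelial markers averaged at most 5.58 and 5.60 in any line. Of 6 blood cell markers, 3 reached the median level in every line, with Csf1r at 6.84 in SV5 NN4. The neural marker Sox10 averaged 6.58 to 6.71 over the lines, and the muscle marker Ckm at most 6.18. The highest of the 28 was Fabp4, a fat cell gene, at 7.19 in SV5. The log2 ratio of 3' to 5' signal, which tracks RNA degradation and labelling, was 3.66 to 4.63 for Actb in SV5 NN4, 2.42 to 4.32 in SV5 and 4.25 to 5.06 in NIH 3T3. SV5 NN4 exceeded SV5 in this ratio by 0.30 to 1.24 across the pairs, SV5 minus NIH 3T3 was -2.65 to -0.10, and SV5 NN4 minus NIH 3T3 was -1.40 to 0.20. For Gapdh the ratio was 2.66 to 3.52 in SV5 NN4, 2.36 to 3.03 in SV5, and 2.65, 2.99 and 5.21 in NIH 3T3, where replicate 3 stood apart. The part of this shift in the results below was not tested.

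**Figure D1:**
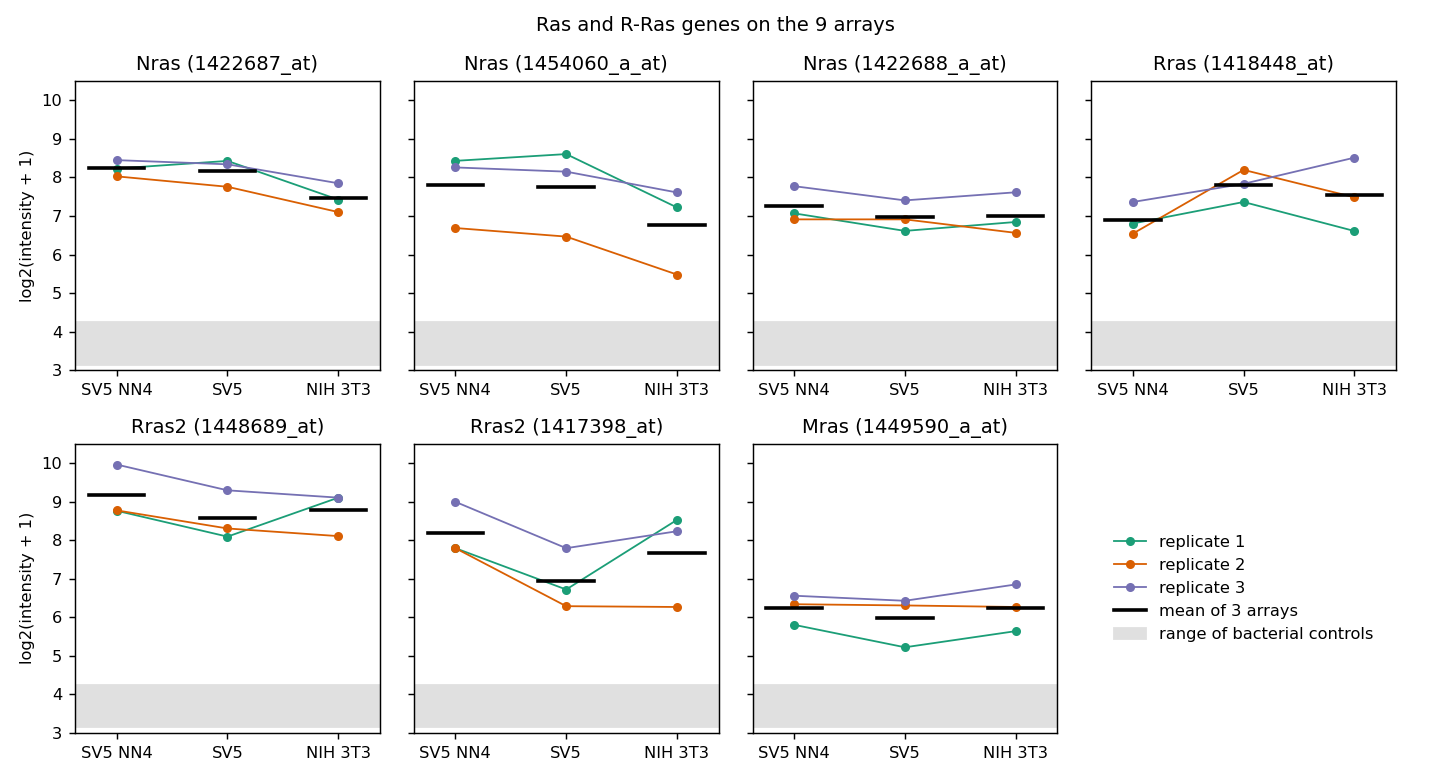
Level of each Ras and R-Ras probe set, as log2(intensity + 1) on the vertical axis, by line. Points are single arrays, thin lines join equal replicate numbers, black bars are means of 3 arrays and the grey band is the 3.14 to 4.25 range of bacterial controls. The Nras probe sets 1422687_at and 1454060_a_at are higher in SV5 NN4 and SV5 than in NIH 3T3 along every thin line.

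Nras, the gene added to SV5 NN4 and the one with 3 of the 7 probe sets, was the only one of the 4 with a called probe set. Its probe sets 1422687_at and 1454060_a_at were higher in both T antigen clones than in NIH 3T3, by 0.72 to 1.02, and 1 of these differences was called. That call was in SV5 NN4 against NIH 3T3, where 1.65% of all probe sets were called, and was lost under 15 of 19 other settings. In SV5 against NIH 3T3, 0.0617% of all probe sets were called. Between SV5 NN4, which carries added Nras, and SV5, which does not, no Nras probe set was called, where 0.864% of all probe sets were. The Nras differences there were 0.05 to 0.27. At the first pair of probe sets the SV5 NN4 means lay within 0.06 of the SV5 means.

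The brightest Nras probe set, 1422687_at, read 8.23, 8.03 and 8.45 on the SV5 NN4 arrays of replicates 1, 2 and 3. It read 8.43, 7.76 and 8.34 on the SV5 arrays and 7.42, 7.10 and 7.85 on the NIH 3T3 arrays. Every SV5 NN4 array lay above every NIH 3T3 array, by at least 0.18, while SV5 overlapped with both lines. The difference of SV5 NN4 from SV5 was 0.06 ± 0.14 (SE, n = 3 per line; adjusted p = 0.96 in limma), with pairs of -0.20, 0.27 and 0.11. The 95% interval ran from -0.28 to 0.40, so that a rise of more than 1.32-fold lay outside it in this fit. This interval rests on the pairing, and without the block the SE was 0.26. SV5 NN4 exceeded NIH 3T3 by 0.78 ± 0.14 (adjusted p = 0.052 in limma), just outside the threshold, with the same sign in 3 of 3 pairs. SV5 exceeded NIH 3T3 by 0.72 ± 0.14 (adjusted p = 0.12 in limma), also in 3 of 3 pairs.

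Probe set 1454060_a_at read 8.43, 6.69 and 8.26 on the SV5 NN4 arrays, 8.61, 6.47 and 8.15 on the SV5 arrays, and 7.22, 5.48 and 7.61 on the NIH 3T3 arrays. The replicate 2 array was the lowest of each line, and replicate number held 75.4% of this probe set's variance, against 22.2% for line. The groups overlapped in every comparison, so the differences rest on the pairing. SV5 NN4 exceeded NIH 3T3 by 1.02 ± 0.18 (adjusted p = 0.046 in limma), with pairs of 1.21, 1.21 and 0.65. This was the only called difference among the 7 probe sets in any comparison. It held under 4 of 19 other settings, among them leaving out NIH 3T3 replicate 1 or 3. It was lost without the block (adjusted p = 1.0), without any SV5 or SV5 NN4 array, without NIH 3T3 replicate 2 or without any replicate number (adjusted p up to 0.35). SV5 exceeded NIH 3T3 by 0.97 ± 0.18 (adjusted p = 0.12 in limma), and SV5 NN4 exceeded SV5 by 0.05 ± 0.18 (adjusted p = 0.98), with an upper 95% bound of 1.38-fold. That bound also rests on the pairing, and without the block the SE was 0.75.

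The third Nras probe set, 1422688_a_at, differed from these in the comparison of SV5 with NIH 3T3. It read 7.07, 6.91 and 7.77 in SV5 NN4, 6.61, 6.91 and 7.40 in SV5, and 6.84, 6.56 and 7.61 in NIH 3T3, with all lines overlapping. SV5 differed from NIH 3T3 by -0.03 ± 0.15 (adjusted p = 0.95 in limma), with pairs of both signs. SV5 NN4 exceeded SV5 by 0.27 ± 0.15 (adjusted p = 0.55), with pairs of 0.46, 0.00 and 0.37 and an upper 95% bound of 1.54-fold. Without the block the SE was 0.35. SV5 NN4 exceeded NIH 3T3 by 0.24 ± 0.15 (adjusted p = 0.46), with pairs of 0.22, 0.35 and 0.16, the same sign as at the other Nras probe sets. The 0.00 reflects intensities that were identical, 119 on the replicate 2 arrays of both clones.

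The Nras probe sets can be set against each other within an array, where a gap that moves between lines shows unequal change in their signals. The part of the 3' to 5' ratios above in these gaps, and in that of Rras2 below, was not tested. The gap of 1422687_at over 1422688_a_at was 1.16, 1.12 and 0.68 in SV5 NN4, 1.82, 0.85 and 0.94 in SV5, and 0.58, 0.54 and 0.23 in NIH 3T3. Both clones lay above NIH 3T3 without overlap, with mean gaps of 0.98 in SV5 NN4, 1.20 in SV5 and 0.45 in NIH 3T3. The differences of these gaps over equal replicate numbers were 0.58, 0.58 and 0.44 for SV5 NN4 minus NIH 3T3, and 1.23, 0.31 and 0.70 for SV5 minus NIH 3T3. With the pairing ignored, each clone gave an exact two-sided permutation p of 0.1 against NIH 3T3, the smallest that 3 against 3 arrays allow (0.4 after Benjamini-Hochberg adjustment over 12 such tests). The gap of 1422687_at over 1454060_a_at was the same in SV5 NN4 and SV5 to within 0.05 in each pair. The probe sets 1422687_at and 1422688_a_at were designed on the same expressed sequence and 1454060_a_at on another, per the platform annotation. The labels and annotation used here do not state which stretches of the transcript they cover, or whether the added Nras holds them.

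**Figure D2:**
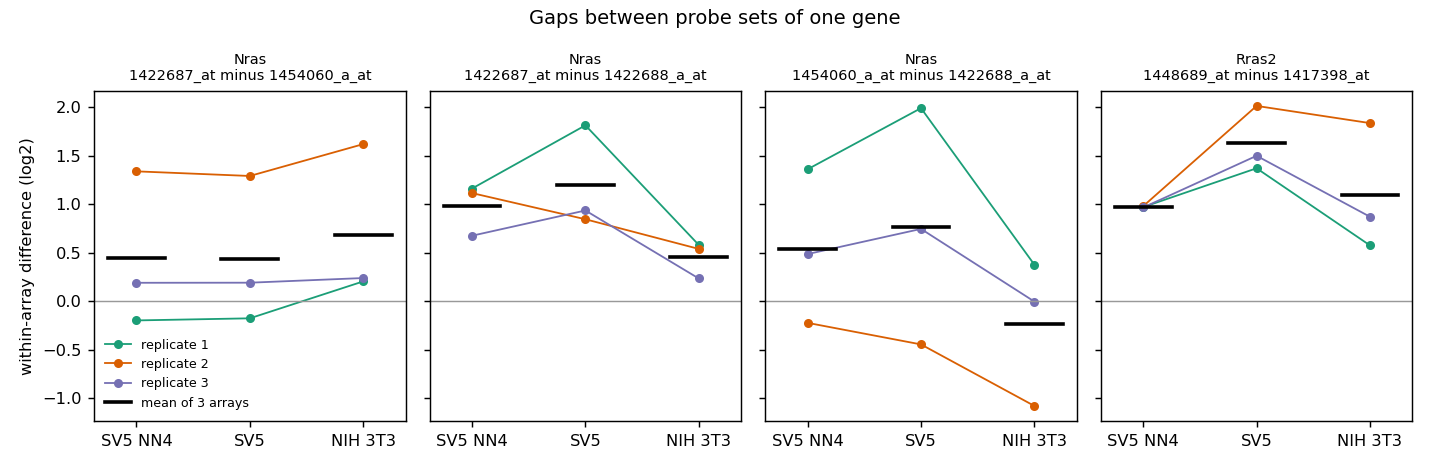
Within-array differences between probe sets of the same gene, on the log2 scale, by line. Points are single arrays joined by replicate number and black bars are means. The gap of Nras 1422687_at over 1422688_a_at averages 0.98 in SV5 NN4 and 1.20 in SV5, against 0.45 in NIH 3T3, and the Rras2 gap averages 0.97 in SV5 NN4 against 1.63 in SV5.

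The endogenous Nras gene lies on chromosome 3, at 103058285 to 103067914 of GRCm38.p6, on the plus strand. The 250 bases before its start in RefSeq, chr3:103058035-103058284 on the plus strand, are shown because Nras read higher at 2 probe sets in SV5, a clone to which no Nras was added. Neither rise over NIH 3T3 was called (adjusted p = 0.12 at each in limma), and 1422688_a_at differed by -0.03. The part of the promoter in these differences was not tested. Capitals mark the E-box CACGTG, the motif that Myc and Max proteins recognise, and the GC box GGGCGG, recognised by Sp1.

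Nras, 250 bases before the start: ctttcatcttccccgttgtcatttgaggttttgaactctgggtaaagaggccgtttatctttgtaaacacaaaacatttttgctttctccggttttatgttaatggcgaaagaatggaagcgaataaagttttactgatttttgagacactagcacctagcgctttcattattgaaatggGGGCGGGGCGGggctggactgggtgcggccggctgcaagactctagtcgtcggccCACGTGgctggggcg

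Both strands were searched in the 250 bases before each start. The E-box begins 15 bases before the Nras start, and 6.02% of 32851 RefSeq promoter windows of this length hold one. The GC boxes begin 70 and 65 bases before it and overlap by a single base, and 32.7% of windows hold at least 1. Motifs of E2F transcription factors (TTTCCCGC, TTTCGCGC, TTTGCCGC and TTTGGCGC) were also searched. No window of Nras, Rras, Rras2 or Mras held one, and 1.86% of all windows did. The Mras window, chr9:99436713-99436962 on the minus strand, lies inside the span of the gene given below. The bases before the outer end of that span, 99437700, were not searched. Rras2 and Mras each had 2 GC boxes and no E-box, and the 3 Rras starts had neither. These are matches of letters and do not show that a factor binds.

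Rras2, also called TC21, encodes an R-Ras subfamily GTPase that engages phosphoinositide 3-kinase and can transform fibroblasts when mutated. The gene lies on chromosome 7, at 114046782 to 114117781 of GRCm38.p6. Both of its probe sets were higher in SV5 NN4 than in SV5 in 3 of 3 pairs, by 1.26 and 0.60, without passing the threshold. Its brightest probe set, 1448689_at, read 8.76, 8.77 and 9.96 in SV5 NN4, 8.09, 8.30 and 9.29 in SV5, and 9.10, 8.10 and 9.10 in NIH 3T3. The lines overlapped, with the replicate 3 array highest in SV5 NN4 and SV5. SV5 NN4 exceeded SV5 by 0.60 ± 0.26 (SE, n = 3 per line; adjusted p = 0.39 in limma), with pairs of 0.67, 0.47 and 0.67.

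The second Rras2 probe set, 1417398_at, read 7.79, 7.79 and 8.99 in SV5 NN4, 6.72, 6.29 and 7.79 in SV5, and 8.53, 6.27 and 8.23 in NIH 3T3. The lowest SV5 NN4 arrays and the highest SV5 array carried the identical intensity of 220. SV5 NN4 exceeded SV5 by 1.26 ± 0.39, a 2.39-fold difference (adjusted p = 0.21 in limma, 95% interval 0.35 to 2.17), with pairs of 1.07, 1.5 and 1.20. Replicate 2 was the lowest NIH 3T3 array at both Rras2 probe sets, and replicates 1 and 3 each read 9.10 at 1448689_at. In SV5 NN4 minus NIH 3T3 the replicate 1 pair ran against the others, with -0.73, 1.53 and 0.76 at 1417398_at. SV5 minus NIH 3T3 was -1.81, 0.02 and -0.44.

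The Rras2 calls came only in fits that left out NIH 3T3 replicate 1. Without NIH 3T3 replicate 1, both probe sets were called higher in SV5 NN4 than in SV5 (adjusted p = 0.014 for 1417398_at and 0.035 for 1448689_at in limma), with the differences unaltered. They were also called with only SV5 NN4 and SV5 in the fit (adjusted p = 0.0074 and 0.030). Calls in this comparison rose across the whole array at the same time, to 950 of 22690 probe sets without that array and 1504 with only those lines, against 196 with all 9 arrays, so the gain is not particular to Rras2. Against NIH 3T3, leaving that array out gave SV5 NN4 differences of 1.10 and 0.78 (adjusted p = 0.026 and 0.023), where all 9 arrays gave 0.52 and 0.40 (adjusted p = 0.56 and 0.50), and called probe sets numbered 1239 without it and 375 with it. The size of the shift differed between the probe sets. The gap of 1448689_at over 1417398_at was 0.97, 0.98 and 0.97 in SV5 NN4, against 1.37, 2.02 and 1.5 in SV5, with no overlap and pair differences of -0.40, -1.03 and -0.53 (exact two-sided permutation p = 0.1 with the pairing ignored, the smallest possible, and 0.4 after adjustment over 12 tests).

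Rras encodes R-Ras, a GTPase known for raising integrin affinity and cell adhesion, and its gene lies on the same chromosome at 45017942 to 45021646. Its probe set 1418448_at was lower in SV5 NN4 than in SV5 in 3 of 3 pairs, opposite in sign to Rras2, and did not pass the threshold. It read 6.80, 6.54 and 7.36 in SV5 NN4, 7.36, 8.20 and 7.83 in SV5, and 6.61, 7.48 and 8.51 in NIH 3T3. The highest SV5 NN4 array and the lowest SV5 array had the identical intensity of 164, so the groups touched. The NIH 3T3 arrays overlapped with those of both clones. The difference of SV5 NN4 from SV5 was -0.89 ± 0.33 (adjusted p = 0.31 in limma, 95% interval -1.68 to -0.11), with pairs of -0.56, -1.65 and -0.47. SV5 minus NIH 3T3 was 0.26 ± 0.33 (adjusted p = 0.76) and SV5 NN4 minus NIH 3T3 was -0.63 ± 0.33 (adjusted p = 0.39), with pairs of both signs in each.

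Mras encodes M-Ras, which with the scaffold Shoc2 and a catalytic subunit of protein phosphatase 1 forms a complex that dephosphorylates Raf kinases. Its gene lies on chromosome 9, at 99385420 to 99437700. Among the 7 probe sets, line held the smallest share of variance at its probe set 1449590_a_at. It read 5.80, 6.34 and 6.56 in SV5 NN4, 5.22, 6.31 and 6.43 in SV5, and 5.64, 6.27 and 6.85 in NIH 3T3. Replicate 1 was the lowest array of every line, and replicate number held 86.5% of the variance, against 6.52% for line. SV5 NN4 minus SV5 was 0.25 ± 0.16 (adjusted p = 0.64 in limma), SV5 minus NIH 3T3 was -0.27 ± 0.16 (adjusted p = 0.48), and SV5 NN4 minus NIH 3T3 was -0.02 ± 0.16 (adjusted p = 0.97). The 95% intervals spanned -0.12 to 0.62, -0.63 to 0.10 and -0.39 to 0.35, so that changes of 2-fold lay outside all of them in this fit. These intervals rest on the pairing, and without the block the SE was 0.41.

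**Figure D3:**
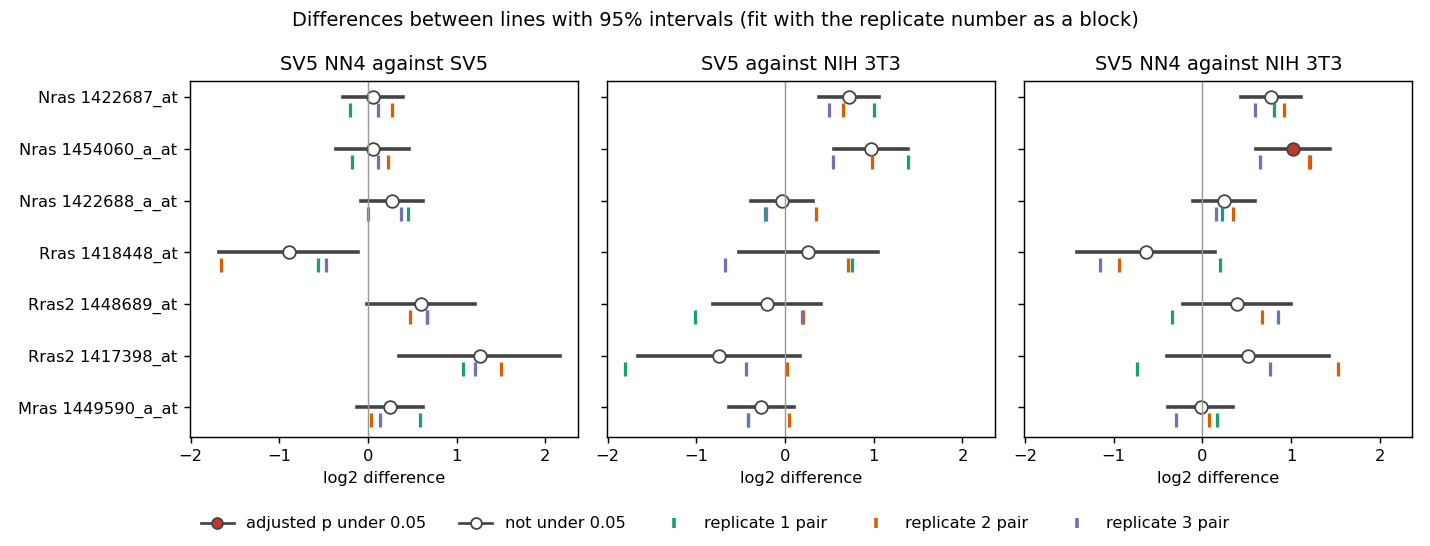
Differences between lines on the log2 scale for the 7 probe sets, first-named line minus second. Circles are limma estimates with equal replicate numbers paired, horizontal lines are 95% intervals and ticks below them are the 3 replicate pairs. The red circle marks the called difference, Nras 1454060_a_at at 1.02 in SV5 NN4 against NIH 3T3.

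Counted over the 7 probe sets, 0 were called in SV5 NN4 against SV5 by limma, where 0.864% of all probe sets were. At an unadjusted p under 0.05 there were 2, Rras and Rras2 1417398_at, where 13.0% of all probe sets passed. In SV5 against NIH 3T3, 0 were called (0.0617% of all), and 2, both of Nras, had an unadjusted p under 0.05 (14.2% of all). In SV5 NN4 against NIH 3T3, 1 was called and it was higher (1.65% of all were called, 1.14% of all as higher), and 2, again of Nras, had an unadjusted p under 0.05 (17.1% of all). These shares depend on single arrays: leaving out an array or a replicate number gave 2 to 950, 0 to 49 and 1 to 1239 called probe sets in the order of these comparisons, where all 9 arrays gave 196, 14 and 375. The comparisons share arrays and are not independent of each other. Arrays of the compared lines did not overlap for 0, 0 and 1 of the 7 in the order of these comparisons, against 7.93%, 4.55% and 6.45% of all probe sets. All 3 pairs had 1 sign for 4, 2 and 3 of the 7, against 40.5%, 30.3% and 35.9% of all. The median difference of the 7 was 0.25, -0.03 and 0.40.

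Genes that regulate Ras or act with it were examined in 7 lists of 90 genes, of which 78 were measured, each at its brightest probe set. In SV5 NN4 against SV5, 1 of 78 was called and it was lower, where 1.05% of 12393 genes were called, 0.678% as lower. In SV5 NN4 against NIH 3T3, 2 were called, both lower, where 1.96% of genes were, 0.686% as lower, and in SV5 against NIH 3T3, 0 were (0.0484% of genes). At an unadjusted p under 0.05 limma gave 11, 18 and 11 of the 78, against 14.6%, 19.4% and 15.0% of all genes. These shares lie near the background. The list medians ran from -0.14 to 0.05, from -0.25 to 0.06 and from -0.16 to 0.31, beside medians over all genes of 0.01, -0.03 and -0.03.

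Of the 9 GTPase-activating proteins, which switch Ras off, only Rasa3 was called in the comparisons of SV5 NN4, which share its arrays. Of all genes, 1.05% were called against SV5 and 1.96% against NIH 3T3. Rasa3, a member of this class that acts on Ras and on the related GTPase Rap1, fell in SV5 NN4 against both other lines. It read 6.30, 6.11 and 6.99 in SV5 NN4, 7.23, 8.0 and 8.82 in SV5, and 7.23, 7.23 and 8.53 in NIH 3T3, and each SV5 NN4 array lay below every array of the other lines. It fell by 1.55 ± 0.21 against SV5 (SE, n = 3 per line; adjusted p = 0.030 in limma) and by 1.19 ± 0.21 against NIH 3T3 (adjusted p = 0.046). SV5 differed from NIH 3T3 by 0.36 ± 0.21 (adjusted p = 0.49). The call against SV5 was lost without the block (adjusted p = 0.78), with a pseudocount of 16, without NIH 3T3 replicate 2, without any SV5 or SV5 NN4 array, and without replicate number 2 or 3 (adjusted p up to 0.36), with differences of -1.86 to -1.36 over all the settings that leave out arrays. The call against NIH 3T3 was lost under 13 of 19 other settings (differences of -1.42 to -1.02). Rasa4 of the same list read 1.53 ± 0.78 above NIH 3T3 in SV5 (adjusted p = 0.42).

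Of the 9 fibroblast markers, 3 were called lower in SV5 NN4 against SV5 (Pdgfra, Thy1 and Col3a1) and 2 against NIH 3T3 (Pdgfra and Thy1). Of all genes, 0.678% and 0.686% were called lower. Only 1 of the 9 was higher in each of these comparisons. At an unadjusted p under 0.05 limma gave 7 and 4 of the 9, against 14.6% and 19.4% of all genes. The differences of the 9 markers from SV5 ran from -2.10 for Pdgfra to 0.01 for Vim, with a list median of -1.05. Their summed intensity was 23797 to 37759 in SV5 NN4, 38465 to 58879 in SV5 and 25939 to 51173 in NIH 3T3, without overlap between SV5 NN4 and SV5 and with overlap between SV5 NN4 and NIH 3T3. The part of this in the lower Rasa3 signal was not tested.

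Among other GTPases of the Ras branch, 24 were measured, and 1 was called, in SV5 NN4 against NIH 3T3, where 1.96% of all genes were. Rasl11b, an atypical member of the branch, read 6.17, 6.06 and 5.82 in SV5 NN4, 6.86, 6.87 and 6.93 in SV5, and 6.64, 7.13 and 6.96 in NIH 3T3, and SV5 NN4 stood below both without overlap. Of all probe sets, 7.93% had no overlap between SV5 NN4 and SV5, and 6.45% had none between SV5 NN4 and NIH 3T3. Rasl11b fell by 0.89 ± 0.16 against NIH 3T3 (adjusted p = 0.049 in limma), and the difference from SV5 was -0.87 ± 0.16 (adjusted p = 0.067). The first call was lost under 14 of 19 other settings, with differences of -1.10 to -0.76. Rap2a, a Rap GTPase, read 8.50, 8.22 and 8.65 in SV5 NN4, 9.55, 10.01 and 9.87 in SV5, and 8.56, 8.62 and 9.96 in NIH 3T3. Its difference of SV5 NN4 from SV5 was -1.35 ± 0.29 (adjusted p = 0.089), and NIH 3T3 replicate 3 lay with the SV5 arrays.

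No member of the remaining lists was called by limma. Of all genes, 1.05% were called in SV5 NN4 against SV5, 0.0484% in SV5 against NIH 3T3 and 1.96% in SV5 NN4 against NIH 3T3. Among 9 adaptors upstream of Ras, the largest differences at or above the median level were those of Irs1, an insulin receptor substrate, at -0.81 ± 0.15 in SV5 NN4 against SV5 (adjusted p = 0.061), of the tyrosine phosphatase Ptpn11 at 0.60 ± 0.13 in SV5 NN4 against NIH 3T3 (adjusted p = 0.076), and of Crk at 0.45 ± 0.46 in SV5 against NIH 3T3 (adjusted p = 0.70). Irs1 read 8.49, 8.74 and 9.02 in SV5 NN4 against 9.08, 9.58 and 10.02 in SV5, without overlap. Among 7 exchange factors, Sos1 differed most at or above the median level, by 0.14 to 0.39 over the comparisons (adjusted p of at least 0.31). Rasgrf1, just below that level, differed more: by -0.97 ± 0.24 in SV5 against NIH 3T3 (adjusted p = 0.17 in limma). In SV5 NN4 against NIH 3T3 it differed by -0.79 ± 0.24 (adjusted p = 0.16), and in SV5 NN4 against SV5 by 0.18 ± 0.24 (adjusted p = 0.91).

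Among 14 effectors, the Rac exchange factor Tiam1 differed by 0.67 ± 0.18 in SV5 NN4 against SV5 (adjusted p = 0.15), the Rab5 exchange factor Rin1 by 0.88 ± 0.20 in SV5 NN4 against NIH 3T3 (adjusted p = 0.088), and Rgl2, which activates Ral, by 0.51 ± 0.26 in SV5 against NIH 3T3 (adjusted p = 0.43). Of the 4 Shoc2 and protein phosphatase 1 genes that partner Mras, the catalytic subunit Ppp1ca differed most, by 0.99 ± 0.20 in SV5 NN4 against NIH 3T3 (adjusted p = 0.069). Shoc2 itself read 8.04 ± 0.15 (SD, n = 3) in SV5 NN4, 8.23 ± 0.20 in SV5 and 8.04 ± 0.20 in NIH 3T3. Of 11 genes for lipid modification and trafficking, Fnta, the alpha subunit of protein prenyltransferases, differed by -0.81 ± 0.18 in SV5 NN4 against SV5 (adjusted p = 0.10). Abhd17a, which removes palmitate from N-Ras in human cells, read 0.86 ± 0.30 above NIH 3T3 in both clones (adjusted p = 0.21 in SV5 NN4 and 0.28 in SV5).

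**Figure D4:**
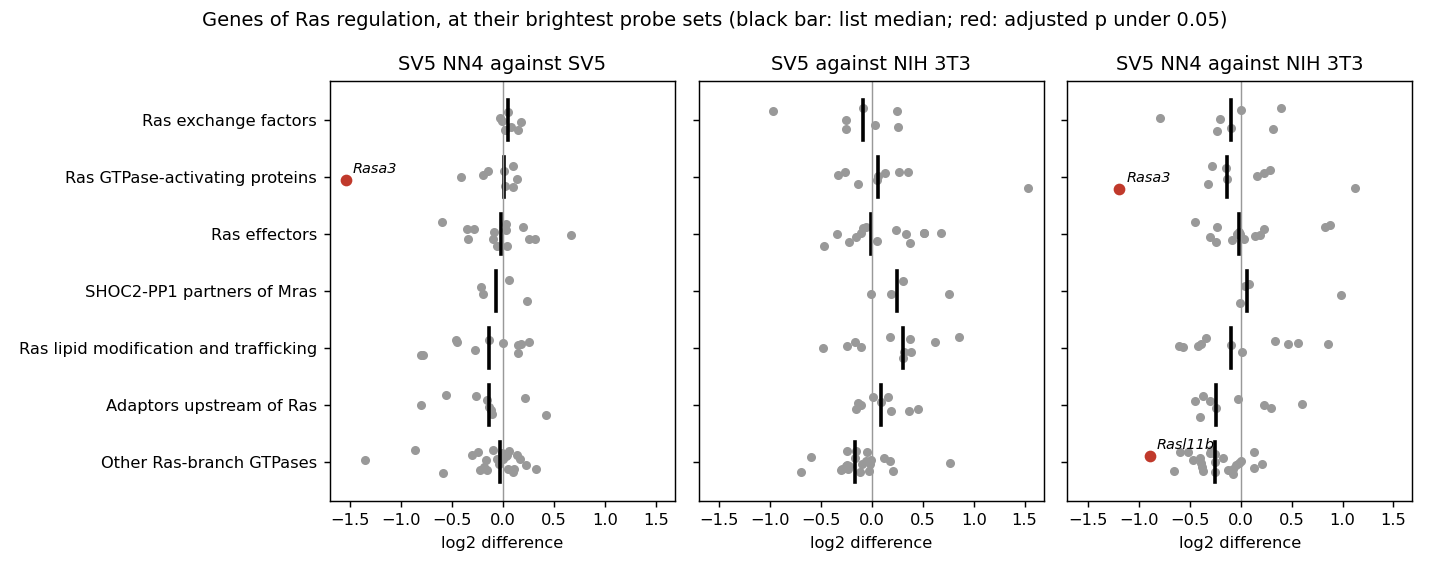
Log2 differences of the 78 measured genes of Ras regulation, 1 point per gene at its brightest probe set, in 7 lists and 3 comparisons, first-named line minus second. Black bars are list medians and red points are called genes, which are Rasa3 in both comparisons of SV5 NN4 and Rasl11b in SV5 NN4 against NIH 3T3.

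The genes most like each member in pattern were ranked by Pearson correlation over the 9 arrays, after the mean of each replicate number was removed, among 7141 genes at or above the median level. They are the top of a ranking and carry no test. For Nras they were Higd2a, Dhx30 and Sdha (r of 0.98 each), which read 0.51 to 0.86 higher in SV5 NN4 than in NIH 3T3. For Rras2 they were Blm, Zbtb18 and Timm8a1 (0.98 each), and for Rras they were Ski (0.996), Plekhf1 (0.98) and Med12l (0.97). For Mras they were Hdhd3 (0.94), Nkain1 (0.92) and Rpap2 (0.91). Nras 1422687_at itself correlated in the same way at 0.99 with 1454060_a_at and at 0.27 with 1422688_a_at, so its ranking does not stand for every Nras probe set.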

How the data were processed

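The deposited table holds 1 intensity per probe set and array on a linear scale, and RMA is named, with no version, per the submitters' processing notes. The labels used here state no RMA settings. Exactly equal intensities on 2 or more arrays occurred in 6816 of 22690 probe sets. Groups and replicate numbers came from the sample titles. Symbols came from the platform annotation, and all 4 members matched a RefSeq gene of GRCm38.p6, which also gave the promoter. The members, lists and tests were chosen with earlier results of these data known.

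Values were log2(intensity + 1). limma 3.58.1 in R 4.3.3 fitted a mean per line and the replicate number as a block on all 9 arrays, with eBayes and Benjamini-Hochberg adjustment over 22690 probe sets. The pairing was set with the choice of genes and then checked on the arrays, since no label states it. After line means were removed, 9 pairs of equal-numbered arrays correlated at 0.26 to 0.84 and 18 other pairs at -0.73 to 0.11. Removing line means makes deviations cancel within a line, so the low values of the 18 follow in part from the 9. The fit was tested on simulated data. A gene of a list stood by its brightest probe set. Named were all member probe sets, called list genes or else the largest difference of a list among genes at the median level, and the 3 genes most like each member. The 12 tests of gaps between probe sets were exact permutation tests that ignored the pairing. With 3 arrays per line, the number of arrays limits the precision. Alternatives were no block, fewer lines, a larger pseudocount, a filter, centring, quantile normalization, an intensity trend and leaving out arrays.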

Additional observations from a re-analysis of the deposited data

How the results depend on the processing

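Without the replicate block, the probe sets called over the whole array were 19 in SV5 NN4 against SV5, 1 in SV5 against NIH 3T3 and 18 in SV5 NN4 against NIH 3T3, against 196, 14 and 375 with it, and 0 of the 7 Ras probe sets and 0 of the list genes were called in any of the 3. Nras at its brightest probe set kept its differences there (adjusted p of at least 0.82). In SV5 NN4 against NIH 3T3, the 1 called Ras probe set became 0 with only the compared lines, a pseudocount of 16, quantile normalization or an intensity trend, and 2 with arrays centred on their medians, which brought Nras 1422687_at to 0.80 (adjusted p = 0.049). The 2 called list genes became 0 with only the compared lines and 1 with the pseudocount, centring or the trend. In SV5 NN4 against SV5, only the compared lines gave 2 Ras probe sets and 6 list genes, where calls over the whole array rose to 1504, and the pseudocount gave 0 list genes. Centring turned the Mras difference of SV5 NN4 from NIH 3T3 to 0.0021. The causes were not tested.

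Leaving out an array or a replicate number gave 0 to 3 Ras probe sets and 0 to 3 list genes in SV5 NN4 against NIH 3T3, 0 to 2 and 0 to 5 in SV5 NN4 against SV5, and 0 and 0 in SV5 against NIH 3T3. The most came without NIH 3T3 replicate 1, where calls over the whole array were also highest. Those ranged from 1 to 1239, from 2 to 950 and from 0 to 49 in the same order. Nras at its brightest probe set ranged from -0.044 to 0.20 in SV5 NN4 against SV5, from 0.57 to 0.83 in SV5 against NIH 3T3, and from 0.69 to 0.88 in SV5 NN4 against NIH 3T3. Signs also turned for 1454060_a_at in SV5 NN4 against SV5 (-0.070 to 0.21), for 1422688_a_at (-0.22 to 0.070), Rras (-0.068 to 0.73), Rras2 1448689_at (-0.42 to 0.19) and Rasl11b (-0.19 to 0.092) in SV5 against NIH 3T3, and for Mras in SV5 NN4 against NIH 3T3 (-0.15 to 0.12).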
